A study of Mus musculus with 24 samples.

Results

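The cytosolic ribosomal protein genes described here are 80 of the 25844 genes counted in cultured mouse forelimb buds. They were taken by name (Rpl or Rps followed by a digit, Rplp0, Rplp1, Rplp2 and Rpsa), by protein-coding type and by a mean of at least 10 counts-per-million (CPM) over all 24 libraries. The 80 comprise 43 genes of the large 60S subunit, 3 of the P-stalk that projects from it, and 34 names of the small 40S subunit. One of the 34, Rps19bp1, meets the name rule but encodes a protein that binds RPS19, not a ribosomal protein. Rps19bp1 also has the lowest level of the 80, with 33.4 CPM, followed by Rps4l with 55.1 CPM. A further 4 names fell under the minimum: Rps27rt with 6.71 CPM, Rpl39l with 1.84 CPM, Rpl24 with 0.636 CPM and Rpl3l with 0.10 CPM. These are counted levels, and the part of reads shared with near-identical genes or pseudogenes in them was not tested.

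Forelimb buds came from CD1 mouse embryos (an outbred stock) on gestation day 13 and cultured with the vehicle DMSO, with 1 µM or with 10 µM tert-butylphenyl diphenyl phosphate (BPDP), an organophosphate ester flame retardant and plasticizer. Cultures ran for 3 h or 24 h, which gave 6 groups of 4 libraries. DMSO is the control at each time. The labels do not say whether a library holds 1 bud or a pool, or whether replicates came from separate litters, so p-values measure the spread between these libraries.

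The ribosome is built from a small subunit that decodes mRNA and a large subunit that forms peptide bonds. Its protein genes are among the most strongly transcribed in a dividing cell, and each subunit needs its proteins in matched amounts. In mammals most of these mRNAs begin with a run of pyrimidines at the 5′ end, called the terminal oligopyrimidine (TOP) motif, through which mTOR and LARP1 control their translation. Mutations of single ribosomal protein genes give tissue-specific defects, and loss of Rpl38 in mice alters Hox mRNA translation and skeletal patterning.

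Library totals lay between 14165947 and 20823058 counts. The 10 limb bud marker genes, Prrx1, Tbx5 and Hoxd13 among them, were each at 1 CPM or more, and their summed level ranged over libraries from 1307 to 1940 normalised CPM. Whole buds hold several cell types, and in such samples fewer cells of a type and less RNA per cell cannot be told apart. Libraries also differed in how their counts spread over gene length, which touches short genes such as these: the 80 genes have a median deposited length of 932 bases (255 to 5130), against 3432 bases in 10075 other protein-coding genes at the same minimum level. Among other genes, the median deviation of those under 500 bases minus that of those of 8000 bases and over was -0.32 (log2) in replicate 1 of 10 µM at 3 h and -0.31 in replicate 2 of DMSO at 24 h, against 0.35 in replicate 4 of DMSO at 3 h.

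The starts of a selection of the genes are shown first, since a shared start is what these genes are known for. Most of the starts printed below have a pyrimidine run, although most of the genes searched do not. RefSeq (GRCm38.p6) promoter windows of 300 bases were matched by symbol to 59 of the 80 genes. At the annotated start, 20.3% of these 59 had a C followed by pyrimidines over at least the first 5 bases, against 2.49% of 27025 windows of all genes. Each line gives 20 bases before and 20 bases from the annotated start, 5′ to 3′ on the gene's strand, with the pyrimidine run from the start in capitals; Rpl37a and Rpl39 are shown as genes whose annotated start has no such run.
Rpl38 (chr11:114668560-114668599, + strand): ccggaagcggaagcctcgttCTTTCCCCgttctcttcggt
Rps21 (chr2:180257359-180257398, + strand): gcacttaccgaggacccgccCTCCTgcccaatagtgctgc
Rps27 (chr3:90213629-90213668, - strand): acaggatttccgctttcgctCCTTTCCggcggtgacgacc
Rps6 (chr4:86857348-86857387, - strand): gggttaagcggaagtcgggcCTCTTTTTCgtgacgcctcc
Rplp2 (chr7:141447631-141447670, + strand): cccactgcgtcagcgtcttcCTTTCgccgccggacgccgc
Rpl15 (chr14:18270967-18271006, - strand): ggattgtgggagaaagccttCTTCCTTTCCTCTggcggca
Rpl37a (chr1:72711240-72711279, + strand): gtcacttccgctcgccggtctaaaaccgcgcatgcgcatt
Rpl39 (chrX:37085203-37085242, - strand): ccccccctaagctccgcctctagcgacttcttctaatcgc

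Searched on both strands of the 300-base windows, CCGGAAG (the core of GABPA and other ETS sites) occurred in 40.7% of the 59 genes and in 9.12% of all windows. AAGATGG (the core of YY1 sites) occurred in 13.6% of the genes and 6.48% of all windows, and TATAAA in 8.47% of the genes and 14.2% of all windows. These shares describe letters in annotated windows; no start site or binding was measured here.

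Per length, the 80 genes ranked among the highest of the transcriptome. Levels in this paragraph are counts per kilobase of deposited gene length, scaled to library size, as means over 24 libraries, and they equal the authors' FPKM. The median of the 80 was 1194, against 6.24 for the other tested genes, and 70 of the 80 were among the top 200 genes. Rps27, a zinc finger protein of the small subunit, was highest with 4078 ± 673 (SD over 24 libraries). The stalk protein gene Rplp1, which helps recruit elongation factors, followed with 3824 ± 524, ahead of Rps26 with 3064 ± 374, Rps12 with 2907 ± 340, Rps29 with 2545 ± 416 and Rps14 with 2491 ± 426. The ranges over 24 libraries of neighbours in this order overlap.
At the low end stood Rps19bp1 with 40.2 ± 3.43, Rps4l with 58.5 ± 19.8, Rpl36al with 111 ± 14.1, Rpl35 with 118 ± 18.8, Rpl35a with 156 ± 40.7 and Rps27l with 163 ± 19.6. The highest level was 69.7 times that of Rps4l, the lowest once Rps19bp1, which encodes no ribosomal protein, is left out. Ribosomal protein genes have many processed copies in the genome, and 149 pseudogene-type names in the same table summed to 1447 CPM. Their part in the level of a gene was not tested.

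The 80 genes moved as a block from library to library. Within groups, a gene's log2 level correlated with the median of the other 79 at a median r of 0.97 over 24 libraries, and 71 of the 80 had r above 0.8; the points share library and scaling, so this is a description. The median gene had a within-group SD of 0.24 (log2), which fell to 0.060 once each library's median over the 80 genes was subtracted. For 4681 other genes at 50 CPM or more, the median within-group SD was 0.13.
Their summed share of all counts gives the same picture on a linear scale. At 24 h it was 10.7%, 7.27%, 10.7% and 9.37% in DMSO replicates 1 to 4, 9.49%, 11.5%, 8.17% and 8.49% with 1 µM, and 9.12%, 9.07%, 10.2% and 9.37% with 10 µM. At 3 h it was 8.91%, 8.45%, 9.21% and 10.2% in DMSO, 10.1%, 8.72%, 9.04% and 8.69% with 1 µM, and 6.41%, 8.25%, 8.52% and 8.47% with 10 µM. All groups at 24 h overlapped. At 3 h the 10 µM group averaged 7.91% ± 1.01, against 9.20% ± 0.758 in DMSO (SD, n = 4 each), and its replicates 3 and 4 lay just above DMSO replicate 2, the lowest of that group.

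**Figure D1:**
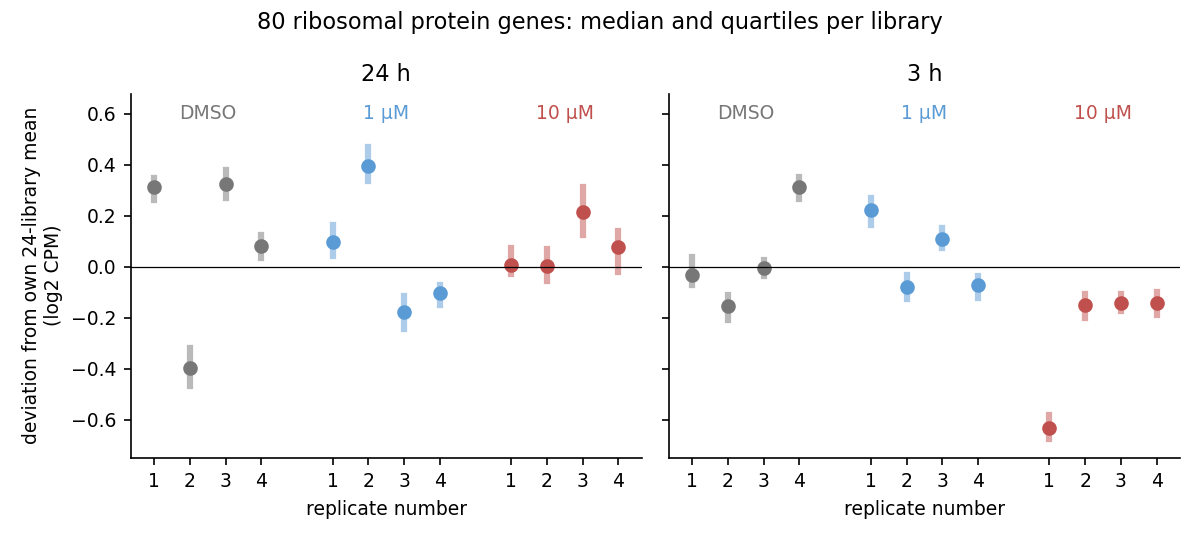
Deviation of the 80 genes from their own 24-library mean (log2 CPM, y axis) in each library (x axis: replicate number within dose, 24 h left and 3 h right); points are medians, bars the quartiles. Replicate 1 of 10 µM at 3 h lies at -0.63 and replicate 2 of DMSO at 24 h at -0.40, while replicate 2 of 1 µM at 24 h lies at 0.40.

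Single libraries stood apart. In replicate 1 of 10 µM at 3 h all 80 genes were under their own 24-library mean, with a median deviation of -0.63, while the other 3 libraries of that group lay at -0.14 to -0.15. In replicate 2 of DMSO at 24 h 78 genes were under their mean (median -0.40), whereas replicates 1 and 3 of the same group had medians of 0.31 and 0.32. Replicate 2 of 1 µM at 24 h was highest, with 79 genes above their mean and a median of 0.40.
Other short genes moved with them: over the 24 libraries, the median within-group deviation of 1482 other genes under 1000 bases and that of the 80 genes had a Pearson r of 0.84 (Spearman rho 0.88), and r was 0.82 without the 2 libraries farthest from the median of the other short genes. The libraries share depth scaling and length composition, and the signs matched in 19 of 24. Values for the 80 genes spread further, with a slope of 2.15.

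**Figure D2:**
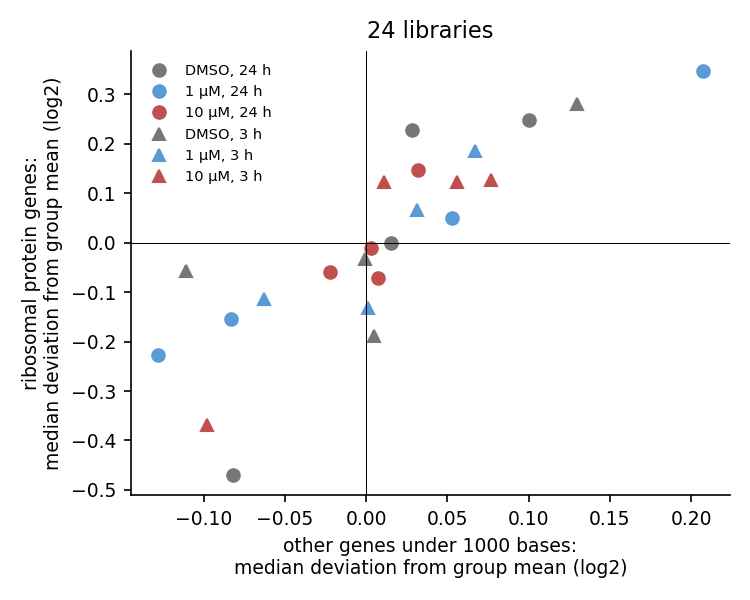
Median deviation from the group mean (log2) of the 80 ribosomal protein genes (y axis) against that of 1482 other genes under 1000 bases (x axis), 1 point per library, circles for 24 h and triangles for 3 h. Points run from lower left (replicate 1 of 10 µM at 3 h, replicate 2 of DMSO at 24 h) to upper right (replicate 2 of 1 µM at 24 h), with r of 0.84.

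With 10 µM BPDP at 3 h, all 80 genes were lower in the treated group than in DMSO, with a median log2 fold change of -0.29 and a range from -0.47 to -0.06, against a median of -0.005 over all 15520 genes tested. No single gene passed the threshold (edgeR quasi-likelihood test, Benjamini-Hochberg adjusted p under 0.05), where 1 gene in all was called lower (0.00644% of those tested). At an unadjusted p under 0.05, 33 of the 80 were lower, against 6.75% of all genes. The groups did not overlap, with every treated library under every DMSO library, for 14 of the 80, against 4.38% of all genes.
Rpl38, the large-subunit gene linked to Hox translation, had 417, 570, 542 and 522 normalised CPM in 10 µM libraries, against 611, 628, 664 and 837 in DMSO libraries. All 4 treated values lay under all 4 DMSO values. Its log2 fold change was -0.41 ± 0.12 (SE), with the lowest adjusted p of the 80 by edgeR, 0.143. Rps21, a small-subunit protein needed for 18S rRNA maturation in yeast, had 566, 688, 644 and 751 normalised CPM with 10 µM and 760, 775, 914 and 1068 with DMSO, again without overlap (log2 fold change -0.40 ± 0.12, edgeR adjusted p = 0.153).
Rpl23a, the large-subunit protein at the exit of the peptide tunnel, had 54.0, 80.1, 94.0 and 95.6 normalised CPM with 10 µM, against 97.1, 94.7, 110 and 135 with DMSO. Replicate 4 of the treated group passed the lowest DMSO library. Its log2 fold change was -0.43 (edgeR adjusted p = 0.312), and in the fit with the replicate number as a block it was called (-0.44, edgeR adjusted p = 0.0434, where 0.586% of all genes were called lower). DESeq2 called 6 of the 80 lower: Rps21, Rpl37a, Rpl38, Rpl36, Rps28 and Rps27, with adjusted p from 0.0256 to 0.0487, where it called 0.973% of all genes lower. The authors' deposited table has the same 6 genes under an adjusted p of 0.05.

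The stalk genes and both subunits lay close together. The 43 large-subunit genes had a median log2 fold change of -0.28, the 33 small-subunit genes without Rps19bp1 -0.30, and the stalk genes Rplp0, Rplp1 and Rplp2 -0.28 to -0.39. Rpsa, a small-subunit protein that doubles as a laminin receptor, had 1477, 2284, 2034 and 2036 normalised CPM with 10 µM and 2438, 2162, 2157 and 2526 with DMSO, groups that overlap through replicate 2. Rpl13a, whose protein also silences inflammatory mRNAs once released from the ribosome, had 1599, 2392, 2324 and 2398 normalised CPM with 10 µM and 2348, 2279, 2372 and 2984 with DMSO. Its treated libraries other than replicate 1 lay inside the range of the DMSO group. Rps19bp1 was nearest to 0, with a log2 fold change of -0.06 and a positive value under 3 alternatives given in the closing section.
The size of the shift and the count at an unadjusted p under 0.05 moved with single libraries and with the fit. Without replicate 1 of 10 µM the median was -0.17, 80 of 80 were still negative and 14 had an unadjusted p under 0.05 (4.18% of all genes). Without replicate 4 of DMSO it was -0.19, with 79 negative and 7 at that p (3.87% of all genes). With the length trend of each library removed, the median was -0.16, 79 were negative and 10 were lower at an unadjusted p under 0.05 (5.33% of all genes). Other fits raised that count: it was 60 without replicate 2 of DMSO (7.03% of all genes; median -0.35, 79 negative), 59 by DESeq2 (7.36%), 54 without the low-count filter (5.22%), 53 with the replicate block (8.47%) and 61 with the term for the replicate split (8.92%). In replicates 1 and 2 alone the median stood at -0.28 with 3 genes at that p (1.89% of all genes), and in replicates 3 and 4 alone also at -0.28 with 33 (5.92%).
The genes lay under other genes of their own length. At 500 to 999 bases the median log2 fold change was -0.30 for 39 ribosomal protein genes and -0.16 for 904 other genes, at 1500 to 2499 bases -0.25 for 11 and -0.08 for 3290, and at 2500 to 3999 bases -0.29 for 6 and -0.02 for 4628. The longest of the 80, Rps15a at 5130 bases, had -0.33 in a class whose other genes had a median of 0.10. Among the 80 themselves, length and log2 fold change had a Spearman rho of 0.42 at 3 h. The 20 shortest had a median of -0.32 and the 20 longest -0.26, all negative.

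**Figure D3:**
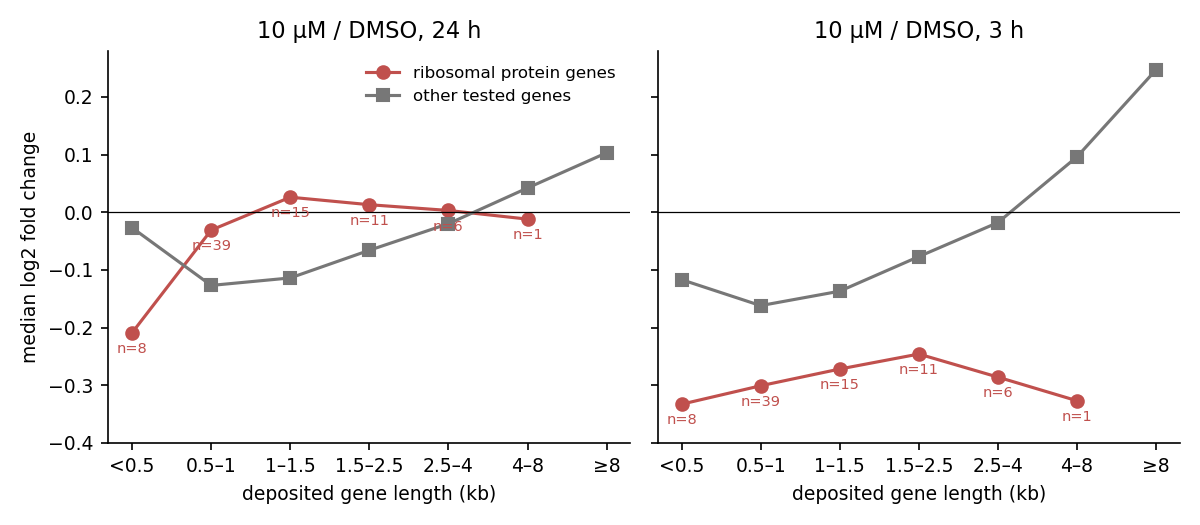
Median log2 fold change (y axis) of ribosomal protein genes (red, number of genes beside each point) and other tested genes (grey) by deposited gene length (x axis, kb), for 10 µM over DMSO at 24 h (left) and 3 h (right). At 3 h the red points lie under the grey ones in every class that holds both; at 24 h they do so below 0.5 kb (-0.21 against -0.03) and, for the single gene of 4 to 8 kb, at -0.01 against 0.04.

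With 1 µM BPDP at 3 h the genes were spread evenly about 0. Of the 80, 40 had a negative log2 fold change, the median was 0.00 and the range -0.22 to 0.16, and no gene had an unadjusted p under 0.05, against 2.07% of all genes lower and 3.12% higher (edgeR called 0% of 15446 genes in either direction, and DESeq2 0 of the 80). The lowest were Rpl35a with -0.22 and Rps2 with -0.18, and the highest was Rpl26 with 0.16. The direction of these 3 genes turned when single libraries were left out, and so did that of the set: 77 of the 80 were positive without replicate 4 of DMSO (median 0.10), and 74 were negative without replicate 1 of 1 µM (-0.06) and 72 without replicate 2 of DMSO (-0.05). The values of Rplp0, an acidic stalk protein gene often used as a loading control, were 3907, 2655, 3585 and 3134 normalised CPM with 1 µM, against 3307, 2357, 3159 and 3986 with DMSO. Both groups span nearly the same range. The median over the 80 was 0.17 in the first pair of replicates and -0.14 in the second.
Set directly against each other at 3 h, the 10 µM group was under the 1 µM group for all 80 genes, with a median log2 fold change of -0.30 and no gene called (edgeR lowest adjusted p = 0.60; 29 lower at an unadjusted p under 0.05, against 4.12% of all genes). The groups did not overlap for 30 of the 80, against 3.16% of all genes. The count of 29 was 0 without replicate 1 of 10 µM (1.58% of all genes), 1 without replicate 1 of 1 µM (1.94%) and 9 without replicate 3 of 1 µM (2.44%), with medians of -0.20, -0.23 and -0.28 and all 80 negative in each; with the replicate block it was 19 (4.89%). Other fits raised the count: it was 47 by DESeq2 (4.65%) and 31 with the length trend removed (4.31%, median -0.25). Without replicate 2 or 4 of 1 µM it was 44 (4.24%) or 39 (4.65%). Without replicate 2, 3 or 4 of 10 µM it was 31 (5.44%), 37 (3.89%) or 35 (3.92%). Both 10 µM comparisons at 3 h share the same treated libraries.

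**Figure D4:**
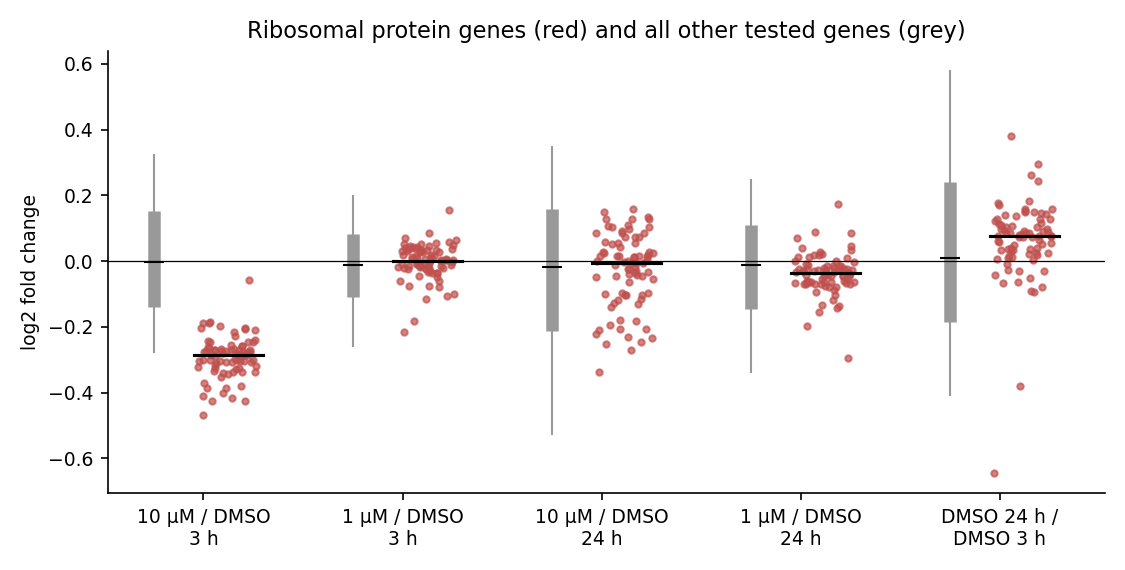
Log2 fold change (y axis) of each of the 80 genes (red points, black line at their median) and of all other tested genes (grey: box for the quartiles, line for the 10th to 90th percentile, tick at the median) in 5 comparisons (x axis). In the comparison of 10 µM with DMSO at 3 h all red points are below 0 with a median of -0.29, while in the other 4 the medians lie between -0.04 and 0.08.

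With 10 µM BPDP at 24 h the median of the genes lay near 0 with all libraries in the fit, while 430 genes in all were called higher (2.77%) and 533 lower (3.44%) of 15508. None of the 80 was called by edgeR: 42 were negative, the median log2 fold change was -0.006 against -0.017 over all genes, and 1 was lower at an unadjusted p under 0.05 (11% of all genes). Rps27l, a paralog of Rps27, was that gene; it lies on chr9:66946086-66949516 (mm10, + strand), with a deposited length of 575 bases. It had 81.1, 76.0, 85.7 and 77.9 normalised CPM in 10 µM libraries, against 97.8, 93.1, 101 and 96.5 in DMSO libraries. All 4 treated values were under all 4 DMSO values, which held for 1 of the 80 and for 7.34% of all genes. Its log2 fold change was -0.27 ± 0.08 (SE), with an edgeR adjusted p of 0.0509, just over the threshold. With the replicate block it was called (edgeR adjusted p = 0.0326; 5.64% of all genes called lower), as it was by DESeq2 (adjusted p = 0.0175; 5.42%) and in the authors' deposited table. With the length trend removed its value was -0.17 (edgeR adjusted p = 0.227).
Rps27, the paralog of Rps27l, had 996, 988, 1099 and 1028 normalised CPM with 10 µM, against 1291, 952, 1336 and 1197 with DMSO, with replicate 2 of DMSO under all treated libraries. The same library was the low one for other short genes: Rps29, a zinc-binding small-subunit protein, had 1095, 1090, 1198 and 1091 normalised CPM with 10 µM, against 1416, 1004, 1513 and 1345 with DMSO. Without that library 75 of the 80 were negative, the median was -0.14, and 19 were lower at an unadjusted p under 0.05 (12% of all genes). EdgeR then called 4 genes lower, where 4.1% of all genes were called lower: Rps29 (log2 fold change -0.34, adjusted p = 0.0293), Rpl37a (-0.35, 0.0283), Rps27 (-0.30, 0.0473) and Rps27l (-0.28, 0.0377). Without replicate 1 or 3 of DMSO the median was 0.08 or 0.07, with 25 or 23 negative, and without replicate 3 of 10 µM it was -0.06, with 57 negative.
Single values of the 80 ranged from -0.34 to 0.16, and by length class the shortest genes had the lowest median. The 8 genes under 500 bases had a median of -0.21, with 7 negative, against -0.03 for 266 other genes of that length, while the 39 genes of 500 to 999 bases had -0.03 and the 15 of 1000 to 1499 bases 0.03, against -0.13 and -0.11 for other genes. With the length trend removed, 21 of the 80 were negative and the median was 0.09. With the trend left in, the median was 0.03 in replicates 1 and 2 alone and -0.03 in replicates 3 and 4 alone. Among the 80, length and log2 fold change had a Spearman rho of 0.42. At the upper end, Rps2 had a log2 fold change of 0.16, Rps3, a protein of the mRNA entry channel, 0.15, and Rps6, the S6 kinase substrate, 0.13. Rps6 had 1191, 1184, 1412 and 1203 normalised CPM with 10 µM, inside the DMSO range of 807 to 1380 but for replicate 3.

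With 1 µM at 24 h, 66 of the 80 were slightly lower, with a median log2 fold change of -0.04 against -0.01 over all 15578 genes, and none was called or had an unadjusted p under 0.05, against 2.92% of all genes lower and 2.97% higher (edgeR; 0 called by DESeq2, 0.238% of all genes lower). In all, 3 genes were called higher (0.0193%) and 9 lower (0.0578%). The lowest was Rpl23a at -0.29, with 110, 137, 51.0 and 84.1 normalised CPM with 1 µM and 127, 83.4, 145 and 113 with DMSO. This comparison turned with the replicates used. The first pair alone gave a median of 0.25, with 79 positive and 2 higher at an unadjusted p under 0.05 (2.39% of all genes). The second pair alone gave -0.33, with all 80 negative and 66 lower at that p (6.81% of all genes; lowest edgeR adjusted p = 0.103). Replicate 2, low in DMSO and high with 1 µM, is in the first pair. Without it in either group 78 of the 80 were negative (median -0.17 without the 1 µM library and -0.16 without the DMSO library), while without replicate 3 or 4 of 1 µM, or 1 or 3 of DMSO, 17 to 28 were negative, with medians from 0.02 to 0.04.
Between the doses at 24 h, 10 µM against 1 µM, the median was 0.02 (0.16 with 70 positive without replicate 2 of 1 µM, and -0.05 with 55 negative without replicate 3 of 1 µM) and no gene was called, while 203 genes in all were called higher (1.22%) and 356 lower (2.13%). Rps4l had the lowest log2 fold change, -0.43 (edgeR adjusted p = 0.567), and was called with the replicate block (-0.46, adjusted p = 0.0375, where 3.04% of all genes were called lower).

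The effect of 10 µM was higher at 24 h than at 3 h for 77 of the 80 genes, by a median of 0.28 on the log2 scale, but the difference was called for none (edgeR interaction, lowest adjusted p = 0.356 for Rpl10, at 0.41 ± 0.20). Of all 16691 genes, 164 were called higher (0.983%) and 268 lower (1.61%) in this difference. The difference was not refitted with single libraries left out, although both of its parts moved with them. With 1 library left out, the median of 10 µM against DMSO ranged from -0.35 to -0.17 at 3 h. At 24 h it ranged from -0.14 (without replicate 2 of DMSO) to 0.08. For 1 µM the difference was negative for 64 of the 80, with a median of -0.04 and none called, where 2 genes in all were called higher (0.012%) and 4 lower (0.024%). Uncorrected p-values of the 80 were all above 0.05 in both.

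In DMSO buds, 24 h of culture against 3 h, 67 of the 80 were higher, by a median log2 of 0.08 against 0.009 over all 15640 genes, and none was called, where 852 genes in all were called higher (5.45%) and 642 lower (4.1%). The direction rested on single libraries: without replicate 1 at 24 h 40 were positive (median 0.00), without replicate 3 at 24 h 46 were negative (-0.01), without replicate 2 at 3 h 44 were positive (0.01), and without replicate 2 at 24 h 77 were positive (0.21), 6 of them at an unadjusted p under 0.05 (13.1% of all genes). Rpl39, whose short basic protein lines the peptide tunnel, had 810, 616, 908 and 734 normalised CPM at 24 h, against 580, 601, 642 and 687 at 3 h. Replicate 2 at 24 h fell inside the 3 h range. It was the 1 gene of the 80 higher at an unadjusted p under 0.05, against 13.4% of all genes. Its log2 fold change of 0.30 ± 0.13 gave an edgeR adjusted p of 0.181, and without that library 0.39 (adjusted p = 0.0482, where 5.28% of all genes were called higher). Rps27 had 0.24 (edgeR adjusted p = 0.333), and with the length trend removed 0.35 (adjusted p = 0.0470, where 5.65% of all genes were called higher).
Rps4l, a relative of X-linked Rps4x on chromosome 6, had 26.6, 27.0, 67.3 and 63.5 normalised CPM at 24 h, against 55.1, 63.0, 88.4 and 82.8 at 3 h. The groups overlap, but within each replicate number the 24 h value was the lower. The log2 fold change was -0.64 ± 0.37 (edgeR adjusted p = 0.338). In replicates 1 and 2 alone it was -1.14, and in replicates 3 and 4 alone -0.38, called in both (edgeR adjusted p = 0.0348 and 0.0486). Of all genes, 0.0947% and 2.98% were called lower in these 2 fits. Rps4x itself had 2272, 1355, 2294 and 1864 normalised CPM at 24 h and 1825, 1546, 1807 and 2153 at 3 h.

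A few genes did not follow the block, and 4 of them differed by replicate number, a test added after their values were seen. Over all 24 libraries, edgeR's test of the replicate number beside group called Rps4l (adjusted p = 4.753e-06), Rps2 (0.00498), Rpl30 (0.00498) and Rpl26 (0.0238). This is 4 of 80, beside 5.48% of all 16691 genes, a share like that of the background.
Rpl26, which encodes a large-subunit protein, was the most variable of all, with a within-group SD of 1.27 (log2). It had 47.5 to 428 normalised CPM in the 6 libraries numbered 1 and 129 to 640 in those numbered 2, but 595 to 1163 in those numbered 3 and 585 to 1015 in those numbered 4. Rpl30, which autoregulates its own splicing in yeast, ran the other way: 417 to 747 in replicates 1, 546 to 867 in replicates 2, and 231 to 351 in replicates 4. Its replicates 3 fell apart by time, at 540 to 763 at 24 h and 240 to 331 at 3 h.
Rps2, a small-subunit protein at the mRNA entry, had 761 to 1504 normalised CPM in replicates 1, 524 to 1284 in replicates 2, 584 to 757 in replicates 3 and 566 to 815 in replicates 4. Rps4l had 26.4 to 55.1 in replicates 1 and 25.1 to 63.0 in replicates 2, against 48.9 to 88.4 in replicates 3 and 45.6 to 82.8 in replicates 4. In the authors' mm10 coordinates Rpl26 lies on chr11:68901583-68906989, Rpl30 on chr15:34440505-34443640, Rps2 on chr17:24718116-24721929 and Rps4l on chr6:148354656-148355598. The labels give no litter or batch for the numbers.

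**Figure D5:**
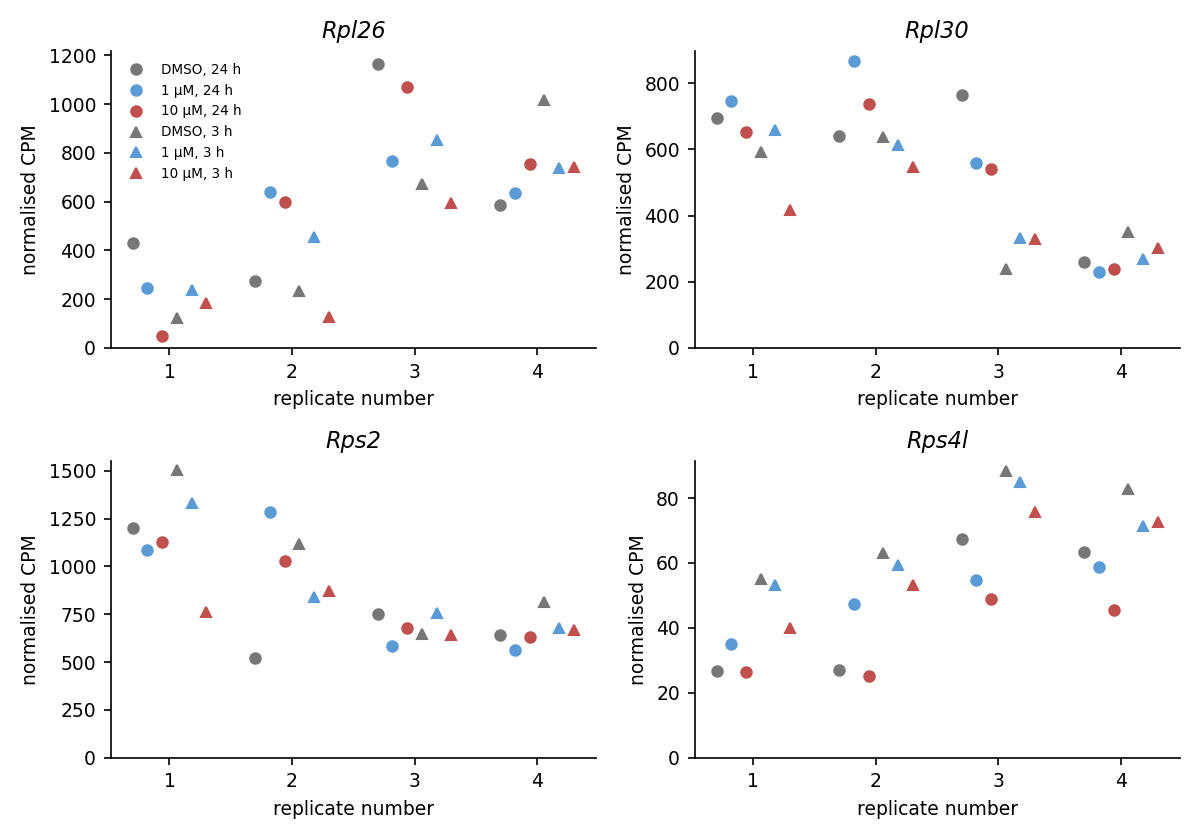
Normalised CPM (y axis, from 0) of Rpl26, Rpl30, Rps2 and Rps4l by replicate number (x axis), with colour for dose and circles for 24 h, triangles for 3 h, 1 point per library. Rpl26 and Rps4l are higher in numbers 3 and 4, while Rpl30 in all libraries numbered 4 lies at 231 to 351.

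At the other extreme, Rps19bp1 had the smallest within-group SD (0.13 on the log2 scale), followed by Rps27l (0.16), Rps27 (0.19) and Rpl9 (0.20). Rpl9 followed the block with an r of 0.98, but Rps19bp1 had 0.48. Rps19bp1 values ran from 29.8 to 42.5 normalised CPM over all 24 libraries.
Paralog pairs could be read side by side. Rpl36al, an autosomal copy of Rpl36a on chromosome 12, had 86.5, 140, 126 and 124 normalised CPM with 10 µM at 3 h, against 137, 122, 147 and 172 with DMSO, and X-linked Rpl36a had 400, 553, 574 and 525 with 10 µM, against 569, 569, 635 and 777 with DMSO. Replicate 1 was the lowest treated library for both. Rpl22l1, the paralog of Rpl22 left out by the name rule, had 130, 152, 170 and 167 with 10 µM at 3 h, against 182, 169, 200 and 221 with DMSO (log2 fold change -0.31, edgeR adjusted p = 0.169). Near-identical genes and their pseudogenes can share reads, which makes a difference between paralogs uncertain.
Of the ribosomal components outside the name rule, Fau, which encodes RPS30, had a log2 fold change of -0.32 with 10 µM at 3 h (edgeR adjusted p = 0.318), and Gnb2l1, which encodes the scaffold RACK1, -0.24 (adjusted p = 0.404). Neither was called in any comparison.

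Other translation genes were read from lists of their own. With 10 µM at 3 h none was called, but the 76 mitochondrial ribosomal protein genes were all negative, with a median log2 fold change of -0.21. The 16 other genes with TOP mRNAs were also all negative (median -0.19), as were 33 of 40 initiation factors (-0.16) and 56 of 72 ribosome biogenesis genes (-0.10). By contrast 13 of 35 translational control genes (median 0.08) and 4 of 10 limb bud genes (0.02) were negative, beside 50.9% of all genes. Gene length also went with the fold change here: genes outside the 80 had a median of -0.16 at 500 to 999 bases and 0.10 at 4000 to 7999 bases. The lists were not set against genes of their own length, and the part of length in their medians was not tested. Most cell type lists also had negative medians: erythroid -0.22 (7 of 9 genes negative), muscle -0.17 (6 of 9) and cartilage -0.11 (7 of 10). Macrophage markers had -0.10 (6 of 9), endothelial markers -0.09 (6 of 8) and cell cycle genes -0.09 (11 of 14). Epidermal markers had a median of 0.03 (4 of 9 negative). The summed erythroid markers ranged from 2436 to 4875 normalised CPM with 10 µM and from 2990 to 7130 with DMSO, and their part in these shifts was not tested.
With 10 µM at 24 h, where none of the 80 was called, 2 of 35 tested translational control genes were called higher and 1 lower, 1 of 40 initiation factors higher and 1 lower, and 1 of 72 biogenesis genes lower, where 2.77% of all genes were called higher and 3.44% lower. Sesn2, a stress-induced inhibitor of mTORC1, averaged 62.8 ± 11.4 normalised CPM with 10 µM and 36.4 ± 3.24 with DMSO (SD, n = 4 each), a log2 fold change of 0.79 (edgeR adjusted p = 0.0034). Eif4ebp1, which holds eIF4E inactive, averaged 115 ± 19.4 with 10 µM and 74.5 ± 14.1 with DMSO (0.63, adjusted p = 0.0282). Mycn, a transcription factor that drives ribosomal genes, fell by 0.91 on the log2 scale (edgeR adjusted p = 0.0175). Eif5 was higher (0.38, adjusted p = 0.0282), and Eif4e (-0.27, 0.0483) and the box C/D snoRNP gene Nop56 (-0.38, 0.0389) were lower.
Among the 76 mitochondrial ribosomal protein genes, Mrpl11 (-0.32) and Mrpl18 (-0.43) were called lower (edgeR adjusted p = 0.0442 and 0.0372). Sesn2 kept its call in all 8 fits that left out 1 library (highest adjusted p = 0.0166), Mycn lost it in 2, Eif4ebp1 and Eif5 in 4, and Eif4e, Nop56, Mrpl11 and Mrpl18 in 7. In the same comparison 14 of 14 cell cycle genes, 6 of 9 tested macrophage markers and 5 of 8 endothelial markers were called lower. Of 9 epidermal markers 2 were called lower and all were negative (median -1.14), and of 10 cartilage markers none was called and all were positive (0.36). Of 10 limb bud genes 1 was called lower. The summed macrophage markers ranged from 59.7 to 86.8 normalised CPM with 10 µM and from 160 to 240 with DMSO, and the cell cycle genes from 594 to 684 with 10 µM and from 1052 to 1231 with DMSO. Their part in the levels of the 80 genes was not tested.
Over time in DMSO buds, where 5.45% of all genes were called higher and 4.1% lower, 2 of 6 genes of the Myc and ribosomal protein surveillance list were called higher: Cdkn1a (1.00, edgeR adjusted p = 3.98e-04) and Ccng1 (0.53, 0.00445), which encode a cyclin-dependent kinase inhibitor and cyclin G1. Of 35 translational control genes 2 were called higher and 3 lower at 24 h than at 3 h. The higher ones were Larp4, which encodes a poly(A) RNA-binding protein (0.41, edgeR adjusted p = 0.02998), and the kinase gene Eef2k, whose product inhibits elongation factor 2 (0.45, 0.0188), and the lower ones were Sesn2 (-0.73, 8.886e-04), Eif4ebp1 (-0.61, 0.00706) and Rps6ka2, which encodes a ribosomal S6 kinase (-0.41, 0.0241). Of 72 biogenesis genes Gnl3, which encodes nucleostemin, was called higher (0.51, 0.0223) and Tcof1, a cofactor of rRNA transcription, lower (-0.32, 0.0255), and of 76 mitochondrial ribosomal protein genes Mrpl10, Mrpl4 and Mrpl49 were called lower (-0.42, -0.40 and -0.31, edgeR adjusted p = 0.0140, 0.0109 and 0.0406). Cdkn1a, Ccng1, Sesn2 and Eif4ebp1 kept their calls in all 8 fits that left out 1 library, and Gnl3 and Tcof1 lost theirs in 4.
Cell type markers and cell cycle genes were also called in the same comparison. Called higher were 8 of 10 cartilage, 8 of 10 muscle, 6 of 9 macrophage and 2 of 9 epidermal markers, and called lower were 13 of 14 cell cycle genes, 2 of 9 erythroid and 2 of 8 endothelial markers and 1 of 10 limb bud genes. Their part in these changes was not tested.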

How the data were processed

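Poly-A RNA of 24 forelimb bud libraries was analysed, grouped by the labels' treatment and time. Per the submitters' processing notes, the reads went through CASAVA 1.8, STAR 2.5, HTSeq 0.6.1 and DESeq2 listed with version 2, and the build was mm10; the role of each, and whether counting used strand, is not given in the sources used here. The data come as 5 tables, each for a pair of groups. The authors deposited in them raw counts of reads per gene for every library, without scaling. Per the file headers they also hold FPKM values, log2 fold changes, p-values and adjusted p-values of the authors, and gene lengths in bases. A further 10 columns of group means were not used. No difference was found among 375696 counts that more than 1 table holds, so the tables were joined into 25844 genes; a gene absent from a table was given 0 counts. Libraries of a group differed beyond sampling noise (chi-square over degrees of freedom at least 4.91).

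Each comparison was fitted on all genes of its 8 libraries with edgeR 4.0.16 (R 4.3.3; quasi-likelihood, robust, TMM, filterByExpr with minimum count 10 and minimum total 15), and dose contrasts and interactions in 1 fit of 24 libraries. All 80 genes passed the filter in every fit. A gene is called where its Benjamini-Hochberg adjusted p is under 0.05. Normalised CPM are counts-per-million after TMM scaling over 24 libraries; for log2 levels 2 was added as prior count. Fits were tested on simulated data. The alternatives are RLE or no scaling, DESeq2 1.42.0, no low-count filter, length and GC trends removed (loess, span 0.3), replicate terms, splits and single libraries left out. Same-numbered libraries deviated together (correlation over 0.1 in all 4 pairs) in the comparisons of treated groups, so those blocked values stand beside results they change. In the comparison over time this held for 3 of 4 pairs. Of the 10 µM libraries at 3 h, 2 of 4 correlated best with their own number in DMSO. Set against the 1 µM libraries at 3 h, 1 of the same 4 correlated best with its own number. In the other comparisons of treated groups 3 or 4 of 4 correlated best with their own number.

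The name rule's "l1" was read as a name ending in a digit and l1 (Rpl22l1, Rpl7l1). Named genes are the 4 highest and 4 lowest fold changes of a comparison with under 4 calls, genes fixed by name and those called under an alternative, of which the text gives a selection. The members and lists were chosen with earlier results of these data known.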

Additional observations from a re-analysis of the deposited data

Results flagged for a closer look

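In groups of 4, a library was set apart where its gap to the nearest other was large for the group's range (above Dixon's 95% critical value for 4 samples). Of 186 groups tested over the summed share and 30 genes, 15 passed, where chance gives about 1 in 20, and these genes move together, so they are not 15 separate events. In replicate 1 of 10 µM at 3 h the summed share was 6.41%, against 8.25% to 8.52% in the other 3. The same library was lowest for Rpl13a (1599 normalised CPM against 2324 to 2398), Rps3 (1028 against 1446 to 1496), Rplp2 (821 against 1145 to 1204), Rps6 (722 against 986 to 1038), Rpl3 (914 against 1287 to 1331), Rpl39 (408 against 530 to 551), Rps4x (1132 against 1620 to 1657) and Rps27a (739 against 1028 to 1047). Replicate 3 of 10 µM at 24 h was highest for Rplp1 (2142 against 1779 to 1802), Rps6 (1412 against 1184 to 1203), Rps29 (1198 against 1090 to 1095) and Rps27a (1439 against 1218 to 1230). Replicate 2 of that group was lowest for Rps21 (762 against 867 to 882). Replicate 4 of DMSO at 3 h was highest for Rpl13a (2984 against 2279 to 2372).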

How the results depend on the processing

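Among the 80 genes, 0 were called higher and 0 lower in each of the 5 main comparisons. The counts called lower with 10 µM at 3 h were 6 by DESeq2, 1 with the replicate block and 4 with a term for the split of replicates 1 and 2 from the others. Of all genes, 0.973%, 0.586% and 0.735% were called lower in these fits, in that order. With 10 µM at 24 h 1 was called lower with library size alone, DESeq2, the replicate block, or that term (Rps27l), 1 in replicates 3 and 4 alone (Rps4l), and 0 to 4 with single libraries left out. Of all genes these fits called 3.46%, 5.42%, 5.64%, 4.58% and 3.15% lower, in that order, and 1.92% to 4.1% with single libraries left out. Over time 1 was called lower (Rps4l) with the replicate block, the block with the length trend removed, the term or either pair of replicates; 1 was called higher with the length trend or the length and GC trends removed, 2 with block and length trend, and 0 to 1 with single libraries left out. Of all genes these fits over time called 5.54%, 6.6%, 5.81%, 0.0947% and 2.98% lower, in that order. Those with calls of higher genes called 5.65%, 5.63% and 7.42% of all genes higher, and 2.83% to 5.73% with single libraries left out. With 10 µM against 1 µM at 24 h 1 was called lower with the replicate block (3.04% of all genes). Over time Rps4l had -0.75 with the block (edgeR adjusted p = 0.00549). The block changed no other call of the 80.
The median with 1 µM at 24 h, -0.04, was 0.25 in replicates 1 and 2 and -0.33 in replicates 3 and 4; 98 of 100 medians moved by less than the spread of library medians (0.23). The causes were not tested.
Over all genes, 1 was called with 10 µM at 3 h, but 486 by DESeq2, 142 without the low-count filter, 52 in 1 fit of 24 libraries, 335 with the replicate block, 13 with the length trend removed, 42 with both, 446 with the replicate term, 4 in replicates 1 and 2, 48 in replicates 3 and 4, and 1 to 11 with single libraries left out. With 1 µM at 3 h 0 were called, but 2 with the replicate block, 25 with block and length trend, 1 in replicates 1 and 2, 2 in replicates 3 and 4, and 0 to 1 with libraries left out. With 10 µM at 24 h 963 were called, against 1564 by DESeq2, 1870 in 1 fit, 1645 with the replicate block, 1574 with block and length trend, 6 in replicates 1 and 2, and 491 to 1242 with libraries left out. With 1 µM at 24 h 12 were called, against 59 by DESeq2, 95 in 1 fit, 0 in replicates 1 and 2, 29 in replicates 3 and 4, and 7 to 12 with libraries left out. Over time 1494 were called, against 2739 in 1 fit, 44 in replicates 1 and 2, and 791 to 1600 with libraries left out.
Of 992 single-gene values 12 changed sign. With 10 µM at 3 h Rps19bp1 was 0.013 with library size alone and 0.089 with the length trend removed, with or without the block, and Rpl30 ranged from -0.398 to 0.025 with libraries left out (0.025 without DMSO replicate 2). With 1 µM at 3 h the ranges were -0.368 to 0.145 for Rpl35a (0.145 without DMSO replicate 4), -0.430 to 0.071 for Rps2 (0.071 without DMSO replicate 1) and -0.159 to 0.729 for Rpl26 (-0.159, -0.074 and -0.102 without DMSO replicates 1 and 2 and treated replicate 3). With 1 µM at 24 h Rps2 ranged from -0.067 to 0.465 (-0.067 without treated replicate 2). Over time Rpl26 ranged from -0.246 to 0.834 (-0.246 without 24 h replicate 3, -0.062 without 3 h replicate 1).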
